A study of Zea mays with 4 samples.

Results

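The catalase genes cat1, cat2 and cat3 of maize were examined across the 4 RNA-seq libraries of a study of nucleosomes in cold-treated seedlings. They were chosen by identifier, Zm00001d014848 for cat1, Zm00001d027511 for cat2 and Zm00001d054044 for cat3, and all 3 were found among 46430 loci in the deposited table. The samples were whole wild-type seedlings of the inbred line B73, the line of the maize reference genome. They were raised in soil for 9 days, in a daily cycle of 16 h light and 8 h dark and a temperature of 25 to 28 °C. Control plants then stayed in these conditions, whereas cold plants were held at 4 °C for 24 h, and 10 plants were harvested whole at the age of 10 days. Each condition had 2 libraries. Nothing in the labels tells whether replicate libraries were made from separate plants, so the spread that the p-values rest on may be technical and is only that between these samples. The comparison asks whether transcripts of these hydrogen peroxide-removing enzymes were more or less abundant after chilling.

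Catalase is a haem enzyme that splits hydrogen peroxide into water and oxygen without needing a reductant. In green tissue much of the peroxide that it removes is made in peroxisomes by glycolate oxidase during photorespiration, and in germinating tissue by the breakdown of stored fatty acids. The maize isozymes are a classical example of a small gene family with divided expression. CAT1 is known from the embryo and scutellum and, at lower levels, from most other tissues, and its transcript is known to respond to abscisic acid and osmotic stress. CAT2 is known as a peroxisomal enzyme of the bundle sheath cells of green leaves. CAT3 is known from leaf mesophyll, is unusual in its association with mitochondria, and has a transcript that cycles with the circadian clock. In libraries of whole seedlings, fewer cells of a type and less RNA per cell cannot be told apart.

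In B73 RefGen_v4, cat1 lies on the plus strand of chromosome 5 (65456721 to 65461269), cat2 on the minus strand of chromosome 1 (7144392 to 7146668) and cat3 on the plus strand of chromosome 4 (245523681 to 245525759). The genes differ in their build more than in the length of their transcripts. The cat1 gene has 8 exons, the cat2 gene 5 and the cat3 gene 3, while their summed exon lengths are 2252, 1887 and 1875 bases. A single exon, the second, holds 1410 bases of cat3, or 75.2% of its exon length. In cat2 the second exon holds 1245 bases (66.0%), and in cat1 the longest exon is the fourth, at 777 bases (34.5%). Introns add 2297 bases to cat1, 390 to cat2 and 204 to cat3. The deposited table pairs identifiers with no names. RefSeq (assembly Zm-B73-REFERENCE-NAM-5.0) lists 1 gene under each catalase name, on the same chromosome as the deposited locus. Its gene spans are 4496, 2277 and 2025 bases for cat1, cat2 and cat3, beside 4549, 2277 and 2079 bases in the deposited table. No annotated locus overlaps any of the 3 genes in that table.

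**Figure D1:**
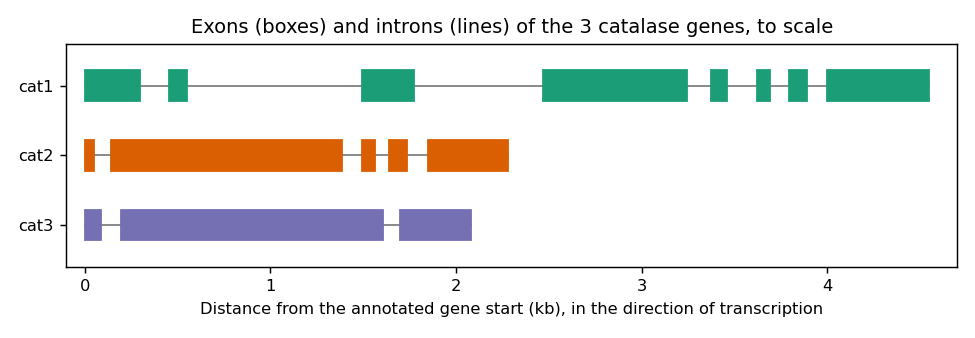
Exons (boxes) and introns (lines) of cat1, cat2 and cat3, drawn to scale as distance in kb from the annotated start along the direction of transcription. The 8 exons of cat1 spread over 4549 bases, whereas cat2 with 5 exons and cat3 with 3 are compact and each dominated by the second exon.

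Between 20942576 and 28493929 fragments were assigned to genes in a library. Of 23169 genes tested across the table, 27.0% were called higher in cold and 27.0% lower (adjusted p under 0.05 by the quasi-likelihood test of edgeR with Benjamini-Hochberg adjustment). With library totals in place of trimmed-mean (TMM) scaling these shares were 20.6% and 35.3%. The cold replicates differed from each other more than the control replicates did. Over 4406 genes averaging 50 CPM or more, a limit chosen after the values were seen, the median absolute log2 difference between replicates was 0.183 in cold and 0.0927 in control. CPM (counts scaled to a common library size) uses the TMM factors unless stated otherwise. Mitochondrial transcripts, taken as a sign of RNA quality, held 0.0767% and 0.0703% of fragments in control and 0.134% and 0.112% in cold. The part of RNA quality in the results was not tested. The alignment names of the control libraries share a number that neither cold library carries, so whatever that number marks and the cold treatment cannot be told apart. The cold libraries also differ from each other in this number. Whether their wider spread goes with cold or with the unlike numbers therefore cannot be told apart either.

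None of the 3 catalase genes was called higher or lower in cold. All had negative fitted changes, with log2 fold changes (cold over control) of -0.13 for cat1, -0.44 for cat2 and -0.38 for cat3. The edgeR test called 0 of the 3 at an adjusted p under 0.05 and 0 at an unadjusted p under 0.05. DESeq2 called 0 after adjustment and 1, cat2, before it. Across all tested genes 54.0% were called in one direction or the other by edgeR, and 47.6% by DESeq2. Among the 4406 more abundant genes edgeR called 58.3%. The median log2 fold change of the 3 catalases was -0.379, beside -0.0293 over all tested genes and 0.174 over the more abundant ones. The median absolute change of all tested genes was 0.649. An absolute change larger than that of cat1 was found for 88.0% of tested genes, larger than that of cat3 for 67.8% and larger than that of cat2 for 63.1%.

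The most abundant catalase transcript was cat3 in each of the 4 libraries. It had 35991 and 26346 fragments in control replicates 1 and 2, and 26118 and 10871 in cold replicates 1 and 2. On the CPM scale it stood at 1199 and 1010.5 in control and at 1118 and 581 in cold. Cold replicate 1 thus lay between the control libraries, while cold replicate 2 lay far below them, so the groups overlapped. The mean went from 1105 ± 133 to 849 ± 379.7 CPM (SD, n = 2 each). The log2 fold change was -0.38 (SE 0.30, edgeR adjusted p = 0.308), with a 95% interval of -1.07 to 0.31 that includes a fall of over 2-fold as well as no change. Ranked by FPKM, which is CPM divided by exon length in kb, among 23103 tested nuclear genes, cat3 stood at 109 and 120 in control, 106 in cold replicate 1 and 284 in cold replicate 2.

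The next most abundant was cat1, the isozyme of broadest expression, with 7094 and 5984 control fragments and 5350 and 3656 cold fragments. Its levels were 236 and 229.5 CPM in control and 229 and 195 CPM in cold. Both cold values lay below both control values, but the lowest control and the highest cold value were less than 1 CPM apart. Their 95% Poisson counting intervals, 224 to 235 and 223 to 235 CPM, overlapped. The mean was 233 ± 4.85 CPM in control and 212 ± 23.8 CPM in cold (SD, n = 2 each). The log2 fold change was -0.13 (SE 0.14, edgeR adjusted p = 0.441), and its 95% interval of -0.46 to 0.19 lay within a change of 2-fold either way. In FPKM cat1 was at 105 and 102 in control and at 102 and 86.8 in cold.

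The lowest level in every library was that of cat2, the isozyme known from bundle sheath peroxisomes. Its fragments numbered 3670 and 2777 in control and 1592 and 1881 in cold, or 122 and 107 CPM against 68.1 and 101 CPM. Again both cold libraries lay below both controls, and here it was cold replicate 1 that was far lower and cold replicate 2 that came close to the controls. The mean was 114 ± 11.2 CPM in control and 84.3 ± 22.9 CPM in cold (SD, n = 2 each). The log2 fold change of -0.44 (SE 0.19) was not called (edgeR adjusted p = 0.0846), and its 95% interval ran from -0.885 to 0.00248. Cold libraries that both lie below both controls are common in these data, at 41.2% of all tested genes, and cat1 and cat2 were 2 such genes among the 3.

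**Figure D2:**
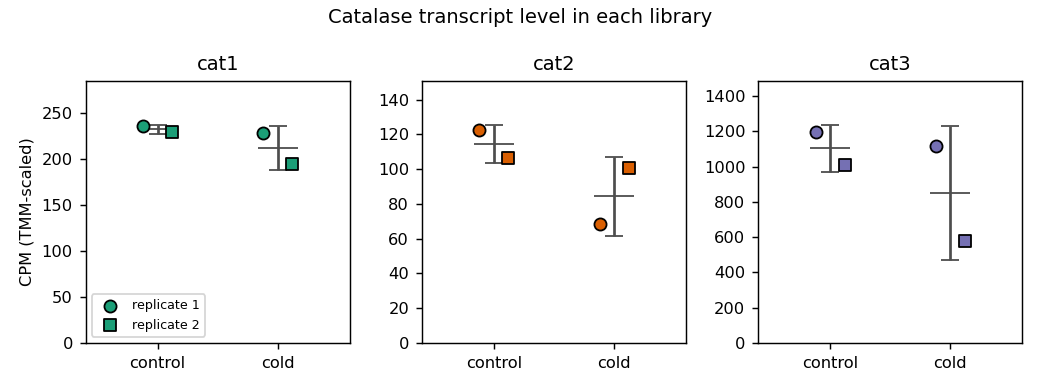
Transcript level in CPM (TMM-scaled, linear axes from 0) of each catalase gene in the 2 control and 2 cold libraries, with replicate 1 as circles and replicate 2 as squares; horizontal bars are group means and whiskers 1 SD. For cat3 cold replicate 2 is the low library at 581 CPM, whereas for cat2 cold replicate 1 is the low one at 68.1 CPM.

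The 3 genes together drew 0.164% and 0.148% of all fragments in control and 0.137% and 0.0783% in cold. Their summed level was 809 and 697 FPKM in control and 734 and 449.9 FPKM in cold. Cold replicate 1 was again between the controls and cold replicate 2 below them, and the means were 753 ± 79.3 and 592 ± 201 FPKM (SD, n = 2 each). By library totals without TMM scaling the groups did not overlap, at 1481 to 1641 summed CPM in control and 783 to 1368 in cold. That scaling moved genes downward in general, with a median log2 fold change of -0.241 and 35.3% of all tested genes called lower by edgeR. The share of all genes without overlap was not counted under it.

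Per kilobase of exon, cat3 supplied most of the catalase transcripts in every library. Its share of the summed FPKM was 79.0% and 77.3% in control, 81.2% in cold replicate 1 and 68.9% in cold replicate 2. The share of cat1 was 13.0% and 14.6% in control and 13.9% and 19.3% in cold. The share of cat2 was nearly the same in the control libraries, at 8.01% and 8.09%, and was 4.92% and 11.8% in the cold ones. The cold libraries thus lay on either side of the controls for cat2 and for cat3. As shares of catalase fragments, without regard to length, cat2 took 4.82% in cold replicate 1 (95% Wilson interval 4.59 to 5.05%) and 11.5% in cold replicate 2 (10.99 to 11.96%). Such intervals cover counting error at most and leave out variation between samples. They may be too narrow even for counting error, since reads without molecular identifiers are not independent molecules.

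**Figure D3:**
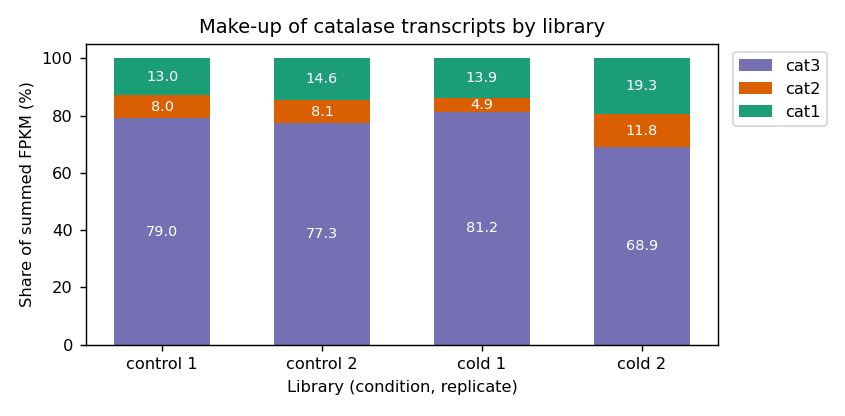
Share of the summed FPKM of the 3 catalase genes held by each gene in each library, in percent, as stacked bars from 0 to 100. The share of cat2 is 8.01% and 8.09% in the control libraries, 4.92% in cold replicate 1 and 11.8% in cold replicate 2.

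Ratios between the genes within a library do not depend on how libraries are scaled to each other. Per kilobase, cat3 exceeded cat2 by 9.87-fold and 9.55-fold in the control libraries, by 16.5-fold in cold replicate 1 and by 5.81-fold in cold replicate 2. On the log2 scale this ratio was 3.28 ± 0.0338 in control and 3.29 ± 1.06 in cold (SD, n = 2 each), so that its mean hardly moved while its spread was far wider in cold. The ratio of cat3 to cat1 was 6.09-fold and 5.29-fold in control and 5.86-fold and 3.57-fold in cold. The ratio of cat1 to cat2 was 1.62-fold and 1.80-fold in control and 2.81-fold and 1.63-fold in cold. In log2 units the ratio of cat3 to cat1 differed by -0.31 between cold and control, and that of cat1 to cat2 by 0.32. An exact two-sided permutation test over the 4 libraries gave p = 0.667 for each of these, and p = 1.0 for cat3 to cat2. Adjusted over the 3 ratios p was 1.0 for each, and the smallest p that 2 libraries against 2 can give is 0.333. In all 4 libraries the order of the levels per kilobase was cat3, then cat1, then cat2.

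The cold replicates differed in cat3 and, in the other direction, in cat2. The level of cat3 was 1.92 times as high in cold replicate 1 as in cold replicate 2 (95% counting interval 1.88 to 1.97), a log2 difference of 0.94. Among the 4406 genes averaging 50 CPM or more, 46 (1.04%) differed at least that much between the cold replicates in either direction, cat3 among them. For cat2 the difference ran the other way, at 0.678 times (0.634 to 0.725) or -0.56 on the log2 scale, a size reached by 6.70% of those genes. For cat1 it was 1.17 times (1.12 to 1.22), a size reached by 40.0%. Between the control replicates cat3 differed by 1.19 times, cat2 by 1.148 times and cat1 by 1.03 times. Differences of these sizes between the control replicates were reached by 13.1%, 19.4% and 75.3% of those genes. The gene-wise biological coefficient of variation estimated by edgeR was 0.204 for cat3, 0.145 for cat2 and 0.113 for cat1. The trend values at their abundance were 0.129, 0.117 and 0.123. The quasi-likelihood test does not use these gene-wise values, so they are not the spread behind its p-values.

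**Figure D4:**
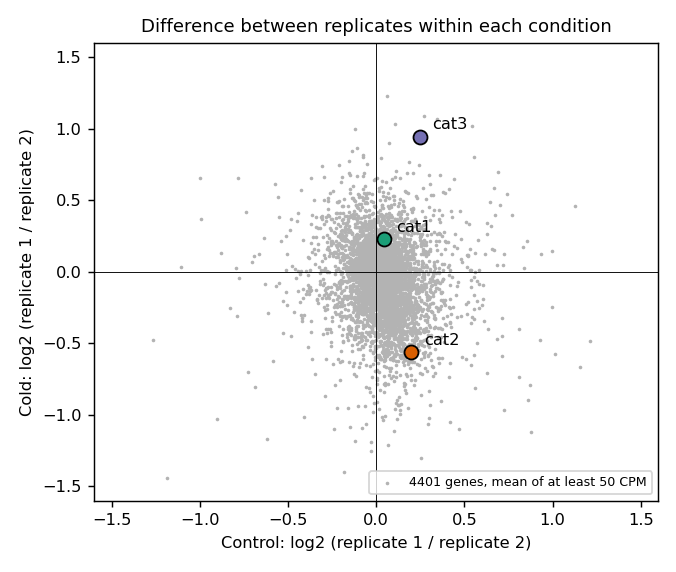
Log2 ratio of replicate 1 to replicate 2 within control (horizontal axis) and within cold (vertical axis) for genes averaging 50 CPM or more (grey points, with 5 genes outside the plotted range) and for the 3 catalases (coloured). The gene cat3 lies high at 0.94 on the cold axis and cat2 low at -0.56, while all 3 lie between 0.04 and 0.25 on the control axis.

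Whether cat2 and cat3 were called depended on which cold library was left out, and for cat2 also on the scaling and the filter. With cold replicate 1 left out, cat3 was called lower at a log2 fold change of -0.93 (edgeR adjusted p = 0.000948), in a fit that called 26.9% of all tested genes lower. With cold replicate 2 left out its change was 0.03 (adjusted p = 0.912). For cat2 the libraries acted the other way round, at -0.74 (called lower, adjusted p = 0.00324, with 25.2% of all genes called lower) when cold replicate 2 was dropped and -0.19 (adjusted p = 0.243) when cold replicate 1 was. Such fits take the lone cold library to vary as the control libraries do. With all libraries kept, cat2 was called lower with upper-quartile factors (-0.60, adjusted p = 0.0267), library totals (-0.66, adjusted p = 0.0103) and no low-count filter (-0.45, adjusted p = 0.0157). Those fits called 33.9%, 35.3% and 22.3% of all genes lower. The scalings by upper quartile and by library totals shifted the overall median log2 fold change from -0.03 to -0.19 and -0.24. Relative to the median of all genes, cat2 was at -0.41 with TMM and with upper-quartile factors and at -0.42 with library totals. In all 12 alternatives cat1 was not called and kept its negative sign, with adjusted p between 0.0833 and 0.937. Over the same alternatives the adjusted p ranged from 0.00324 to 0.324 for cat2 and from 0.000948 to 0.912 for cat3.

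**Figure D5:**
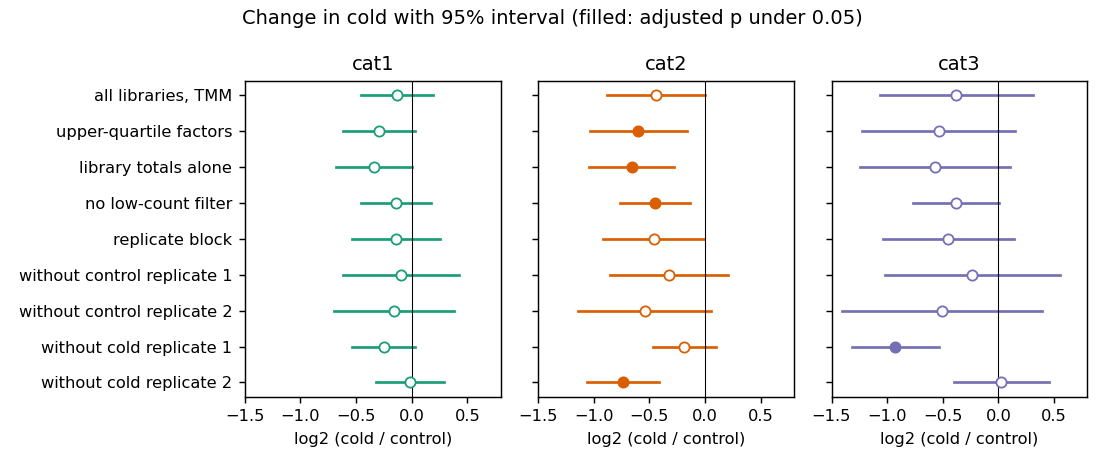
Log2 fold change (cold over control) with its 95% interval for each catalase under the main fit and 8 of the 12 alternatives. Points are filled where the edgeR adjusted p was under 0.05. Not drawn are RLE factors, the top 20 genes dropped, DESeq2 and the 5 CPM filter, in which no catalase was called. The point of cat3 is filled without cold replicate 1 only, and that of cat2 without cold replicate 2, with library totals, with upper-quartile factors and with no low-count filter.

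Likeness of pattern was measured over the 4 libraries as the root mean square difference of log2 CPM, each gene centred on its own mean, against 13117 other nuclear genes averaging 10 CPM or more. The difference was 0.306 between cat1 and cat3, 0.328 between cat1 and cat2 and 0.532 between cat2 and cat3. The median difference from all the other genes was 0.305 for cat1, 0.416 for cat2 and 0.50 for cat3. Seen from cat3, 966 genes lay closer than cat1 and 7333 closer than cat2. Seen from cat2, 4410 genes lay closer than cat1 and 8565 closer than cat3, and seen from cat1, 6570 lay closer than cat3 and 7014 closer than cat2. The nearest gene to cat1 was a minus-strand gene of 21 exons on chromosome 6 (2930352 to 2945593), at 51.7 and 50.5 CPM in control and 50.6 and 42.8 CPM in cold, with a difference of 0.00631. The nearest to cat2 was a plus-strand gene of 3 exons on chromosome 5 (2582304 to 2584012), with a difference of 0.0173. It stood at 14.96 and 13.2 CPM in control and 8.13 and 12.3 CPM in cold. For cat3 no gene came as close, but the measure is not scaled to how far each catalase itself varies between libraries. The nearest, a plus-strand gene of 3 exons on chromosome 6 (129101873 to 129103497), differed by 0.0855 and had 188 and 165 CPM in control and 156 and 92.1 CPM in cold. The 3 genes were picked for sharing the pattern of a catalase in these same libraries, so which library is low in them and that none was called (edgeR adjusted p = 0.419, 0.107 and 0.102) follow from the choice. With 4 libraries the measure of likeness is coarse.

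The nearest annotated genes on either side of the catalases did not share one behaviour. Upstream of cat2, 1703 bases away on the same strand, lies a gene of 9 exons with 4.90 and 4.95 CPM in control and 4.24 and 2.99 CPM in cold (log2 fold change -0.44, edgeR adjusted p = 0.186). On the other side of cat2, 64504 bases away, a gene of 6 exons rose from 40.9 and 36.3 to 191 and 192 CPM (log2 fold change 2.31, SE 0.13, adjusted p = 2.41e-05). Its cold replicates were nearly equal, unlike those of cat2. Downstream of cat1, 16053 bases away on the opposite strand, a gene of 6 exons fell from 7.20 and 8.71 to 1.58 and 0.855 CPM (log2 fold change -2.67, SE 0.32, adjusted p = 0.000457). The nearest locus upstream of cat1, at 40917 bases, had between 2 and 7 fragments per library and was not tested. The neighbours of cat3 lie 50459 bases upstream and 6082 bases downstream and were not called (log2 fold changes of 0.08 and 0.03, adjusted p = 0.716 and 0.959). The upstream one had 65.8 and 70.6 CPM in control and 85.1 and 59.2 CPM in cold, again with cold replicate 2 as the lower cold library.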

How the data were processed

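RNA-seq was analysed in 4 libraries, 2 control and 2 cold. Per the file headers, the authors deposited raw fragment counts by gene from featureCounts 1.6.4, run on release 43 of the B73 RefGen_v4 annotation with no option for strand, multiply mapped reads or reads over several genes. Reads shared by near-identical copies are therefore not counted, and antisense reads cannot be told apart. The submitters' processing notes also name fastp and HISAT2, with no version. The other deposited values are exon lengths, which equal the merged exon coordinates at all 46430 loci.

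The catalases and the lists were chosen with earlier results of these data known. Genes passing filterByExpr (minimum count 10, minimum total 15) numbered 23169, including all 3 catalases. They were tested with edgeR 4.0.16 in R 4.3.3 (quasi-likelihood F test, TMM factors of 0.893 to 1.10, condition as the only term, two-sided, Benjamini-Hochberg over all tested genes). A standard error is the log2 fold change divided by the square root of F, and intervals use the fit's degrees of freedom. FPKM divides TMM-scaled CPM by exon length in kb. Within-library ratios add 0.5 fragments to each count and were tested by exact permutation (scipy 1.17.1). On simulated counts for this comparison over 23169 genes, the test recovered 75% of 100 genes changed 2-fold and 98% of 100 changed 4-fold, with 16 false calls among 189. Only those genes were changed, far fewer than were called in the data. The counts were drawn at the trend of variation, below the gene-wise values of cat2 and cat3. These shares therefore do not tell how often such a change in cat2 or cat3 would be called.

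Alternatives were RLE, upper-quartile and no factors, dropping the top 20 genes by abundance, DESeq2 1.42.0, no filter or 5 CPM in at least 2 libraries, a replicate block, and each library left out. Named genes are the 3 catalases, the gene of most similar pattern to each, and the nearest annotated gene on each side. RefSeq entries linked to 0 of 44146 nuclear identifiers, so a list of other genes of hydrogen peroxide metabolism was not counted. Promoter and protein sequences were not analysed here.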

Additional observations from a re-analysis of the deposited data

How the results depend on the processing

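The change of cat1 kept its sign and stayed uncalled in 12 of 12 alternatives, between -0.34 with library totals and -0.01 without cold replicate 2. The change of cat2 was negative in all 12 and past the threshold in 4, with upper-quartile factors (-0.60), library totals (-0.66), no low-count filter (-0.45) and without cold replicate 2; with 1 library left out it ranged from -0.74 to -0.19. The change of cat3 ranged from -0.93 without cold replicate 1, where it was called, to 0.027 without cold replicate 2, where its sign turned; it was uncalled in the other alternatives. The cause of these differences between libraries was not tested. The cold minus control differences of the log2 ratios ranged, with 1 library left out, from -0.07 to 0.72 for cat1 to cat2, from -0.67 to 0.05 for cat3 to cat1 and from -0.74 to 0.77 for cat3 to cat2. The log2 change of the summed FPKM lay between -0.74 without cold replicate 1 and -0.04 without cold replicate 2, an alternative added after seeing the data. Over all genes, leaving out 1 library gave 4439 to 6341 higher and 3978 to 6397 lower calls, the lowest of each without control replicate 2. The deviations of same-numbered replicates from their group means had r = -0.0655 across 23169 genes, which are not independent replicates; the labels name nothing that the numbers stand for, and the libraries were not treated as paired. The replicate block gave 5829 higher and 5808 lower genes and log2 fold changes of -0.14, -0.46 and -0.45 for cat1, cat2 and cat3, with none called.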
